A study of Mus musculus with 2 samples.

Results

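The 35 genes described here are known for expression in Müller glia or retinal astrocytes, and all of them had a named probe on the array. They were found as the non-control probes whose RefSeq transcript belongs to a listed gene, which gave 48 probes in 75 spots. The array named 21367 genes in all, of which 15937 were above background on at least 1 array. Total RNA of dissected mouse retina at postnatal day 12 was hybridised to 1-colour Agilent arrays. One array carried RNA labelled wild type and the other RNA labelled Samd7 KO, a knockout of Samd7, which encodes a sterile alpha motif domain protein of photoreceptors. The question put by the design is how the expression profile differs between the genotypes. The labels give neither the strain, the number of animals or retinas per RNA sample, nor the deleted part of Samd7.

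Müller glia are the main glial cells of the retina and span its full thickness. They clear glutamate and potassium from the extracellular space, move water, carry lipids and support photoreceptors. They arise late from retinal progenitors, and Notch signalling through Hes factors, together with Sox9 and the Nfi factors, is known to promote their fate. Retinal astrocytes lie at the inner surface of the retina and share many of these genes.

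With 1 array per group there is no test, p-value or spread between animals, and every difference compares these 2 arrays. Levels are log2 processed signal relative to the 75th percentile of the array, and differences are knockout-labelled minus wild-type-labelled. Spots of 1 probe repeated on each array gave the technical SD of a difference, which was 0.049 at levels of 0 or more. It was 0.086 from -2 to 0, 0.19 from -4 to -2 and 0.33 below -4. The brightest probe stands for a gene, and 1.2-fold (0.26 on the log2 scale) and 2-fold are the thresholds used for counts. The 75th percentile of the processed signal was 574 under the wild-type label and 554 under the knockout label, and 60.3% and 60.9% of spots were well above background. The targeted gene went against the label: Samd7, by its 1 named probe, had a level of 4.68 under the wild-type label and 6.47 under the knockout label. Where that probe lies relative to the deletion is not known here, and if it lies outside, it checks nothing. Each direction below rests on the labels as given.

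The Müller glia genes as a group were level between the arrays. All 35 were well above background on both arrays, and 29 of them lay within 1.2-fold. Their median difference was 0.015, with an interquartile range from -0.065 to 0.11. Over all 15937 named genes the median was -0.023 and the interquartile range -0.11 to 0.064. Of the 35, 19 lay above 0 and 16 below, while 6726 of the 15937 lay above 0 and 9188 below.

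No Müller glia gene was 2-fold apart, and none was 1.5-fold apart, where 2.94% and 6.16% of all named genes were. Those shares were smaller among the 8728 named genes at levels of 0 or more, where 27 of the 35 lie. At such levels 1.78% were at least 1.5-fold higher and 0.642% lower, and 0.928% and 0.218% at 2-fold. At 1.2-fold, 4 of 35 (11.4%) were higher on the knockout-labelled array, beside 7.86% of all named genes, and 2 (5.71%) were lower, beside 9.71%. With median centring, quantile normalization or loess the split was 4 higher and 1 lower. Among the 27 members at levels of 0 or more, 2 were higher and 1 lower by this threshold, beside 4.47% and 3.54% of the 8728 named genes at such levels. The higher members were Acsl3, Apoe, Hes1 and Nfia, and the lower ones Slc38a3 and Gja1. Differences beyond 2 technical SDs are a threshold added after seeing the data. On the higher side 8 of 35 members passed it, beside 11.4% of named genes, and on the lower side 4 of 35, beside 17.2%. At levels of 0 or more, 6 of 27 members were higher and 4 lower, beside 1174 and 1780 of 8728 named genes. The SD is that of 1 spot, also for Apoe, Gja1 and Sox9, whose values are means over repeated spots. Because whole retina was measured, fewer cells of a type and less RNA per cell cannot be told apart in any of these values.

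**Figure D1:**
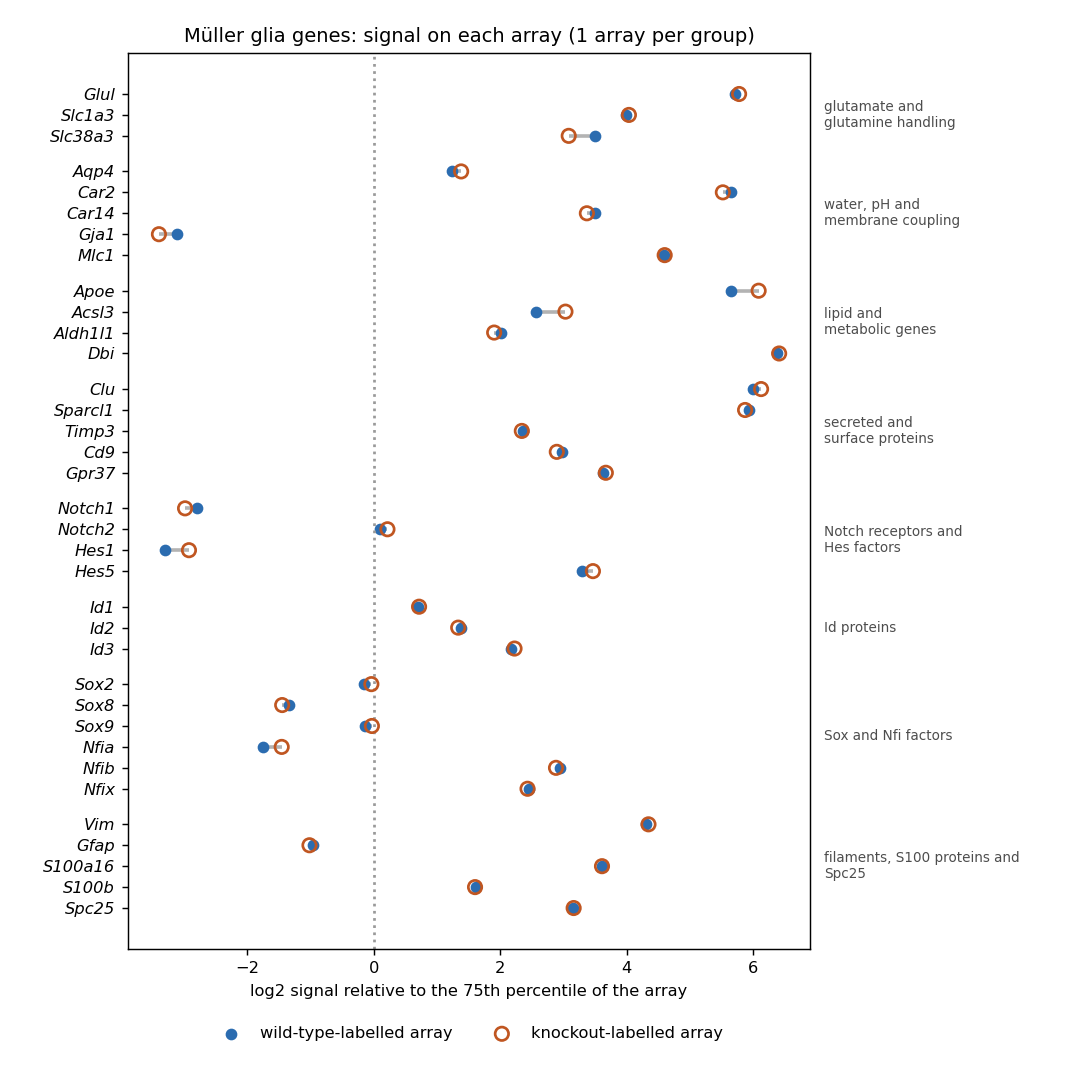
The log2 signal of each of the 35 Müller glia genes relative to the 75th percentile of its array, on the wild-type-labelled array (filled) and the knockout-labelled array (open), ordered by role, with 1 array per group. Most pairs of symbols overlap, and the widest gaps are those of Acsl3, Apoe, Slc38a3 and Hes1; levels of different genes come from different probes and are not to be compared.

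Genes of the glutamate and glutamine cycle split into a level pair and 1 lower gene. Glul encodes glutamine synthetase, the classical Müller glia enzyme that turns glutamate into glutamine. Its level was 5.71 under the wild-type label and 5.77 under the knockout label, a difference of 0.059. Slc1a3, the main glutamate uptake transporter of Müller glia (GLAST), stood at 3.99 and 4.03, a difference of 0.045. Neither difference exceeded 2 technical SDs.

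Slc38a3, a sodium-coupled transporter that moves glutamine across the membrane (SN1 or SNAT3), was the lowest of the 35. Its level was 3.50 under the wild-type label and 3.08 under the knockout label, which is 1.33-fold lower. The difference of -0.42 lay at the 3.78th percentile of the named genes above background on both arrays and is large beside the technical SD of 0.049. It rests on 1 spot per array of 1 probe. Among 14 other genes of glutamate, potassium and water handling, the median was -0.060, and 2 were at least 1.2-fold higher and 1 at least 1.2-fold lower. The related glutamine transporter Slc38a1 was the highest, from 4.66 to 5.29. The lowest was Aqp1, a water channel, at 2.72 under the wild-type label and 1.24 under the knockout label, 2.80-fold lower. The glutamate transporter Slc1a2 was at 0.062.

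Of the genes of water, pH and membrane coupling, only Gja1 was beyond 1.2-fold. Aqp4, the water channel of Müller glia endfeet, was at 1.24 under the wild-type label and 1.38 under the knockout label, and its 2 probes gave the same difference of 0.14. The inward rectifier Kcnj10, its neighbour in the endfeet and not one of the 35, was also at 0.14. The carbonic anhydrases, which buffer pH and carbon dioxide, lay within 1.2-fold, Car2 going from 5.65 to 5.52 (-0.13) and Car14 from 3.50 to 3.37 (-0.14). Of 11 further carbonic anhydrases 9 were above background, with a median of -0.082, from Car12 at -0.42, the only 1 beyond 1.2-fold, to Car4 at 0.028. Mlc1, a membrane protein of glial endfeet, was level, at 4.58 and 4.60.

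Gja1, the gap junction protein connexin 43 of astrocytes and other cells, was measured in repeated spots near the dim end of the scale. Over 9 spots unflagged on both arrays, its level ran from -3.36 to -2.85 (median -3.11) under the wild-type label and from -3.68 to -3.21 (median -3.36) under the knockout label. The ranges overlapped, although each of the 9 positions was lower on the knockout-labelled array. The share of other probes with every position lower was not counted. The mean difference was -0.28 ± 0.16 (SD, n = 9 spots), or 1.21-fold lower. Quantile normalization put it at -0.26, just under the 1.2-fold threshold, and normexp background correction at -0.16. Of other connexins, Gjc1 (-0.082) and Gjd2 (-0.045) were above background, and Gja3, Gjb2 and Gjb6 were not well above background on either array.

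Lipid and metabolic genes held the pair of highest members. Apoe encodes apolipoprotein E, the lipid carrier that Müller glia secrete, and its probe was spotted 10 times on each array. The log2 level ran from 5.59 to 5.68 (median 5.65) over the spots of the wild-type-labelled array and from 6.03 to 6.13 (median 6.08) over those of the knockout-labelled array. The spot ranges did not overlap, and all 10 positions were higher on the knockout-labelled array. Of 254 probes with 9 or 10 such spots, 7.87% had every knockout-labelled spot above every wild-type-labelled one. The mean difference was 0.44 ± 0.030 (SD, n = 10 spots), or 1.36-fold higher, at the 96.9th percentile of named genes. These spots share 1 labelled RNA on each array, so they show the precision of the array and not the spread between animals.

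Acsl3, an acyl-CoA synthetase that activates long-chain fatty acids, had the highest difference of the 35. It was at 2.57 under the wild-type label and 3.03 under the knockout label, 1.37-fold higher (0.46), in 1 spot per array. Its relatives lay within 1.2-fold: Acsl1 was at -0.23, Acsl4 at -0.15, Acsl6 at -0.086 and Acsl5 at 0.048. Over the 11 genes of lipid carriage and acyl-CoA synthesis listed beside the members, the median was -0.086, from Vldlr, a lipoprotein receptor, at -0.36 to Abca1, a lipid exporter, at 0.13. Acsbg1 was above background on the knockout-labelled array only and was at least 1.14-fold higher by that bound. The folate enzyme Aldh1l1, a marker of astrocytes, was at -0.10, with a processed signal of 2302 and 2069. Dbi, which binds acyl-CoA esters, was at 0.041, with -0.012 in its other probe.

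The stretches before the starts of Acsl3 and Apoe are shown because these genes had the highest differences of the set. They are the 250 bases upstream of the furthest upstream start in RefSeq (build GRCm38.p6), at chr1:78657575-78657824 on the plus strand for Acsl3 and chr7:19699189-19699438 on the minus strand for Apoe. Capitals mark GGGCGG, the GC box, on either strand.
Acsl3: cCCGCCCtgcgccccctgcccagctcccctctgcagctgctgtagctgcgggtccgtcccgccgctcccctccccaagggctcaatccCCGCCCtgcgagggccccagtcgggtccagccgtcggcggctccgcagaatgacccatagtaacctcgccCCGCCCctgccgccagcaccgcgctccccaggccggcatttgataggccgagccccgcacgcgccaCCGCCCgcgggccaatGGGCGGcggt
Apoe: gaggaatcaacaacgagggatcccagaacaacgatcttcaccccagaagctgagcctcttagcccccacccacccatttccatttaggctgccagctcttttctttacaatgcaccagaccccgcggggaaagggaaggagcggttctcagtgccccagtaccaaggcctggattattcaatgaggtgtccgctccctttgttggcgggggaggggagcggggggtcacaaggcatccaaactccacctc
The Acsl3 stretch holds 5 GC boxes and 75.6% G and C, and the Apoe stretch has none and 57.2%. GC boxes occurred in 32.7% of 32851 RefSeq promoter stretches of this length. They occurred in 15 (45.5%) of the 33 stretches listed for 26 of the 35 genes. The median content of G and C was 58.4% in these 33 and 52.4% in all stretches. Such GC box matches describe the sequence and are no evidence of a factor's binding.

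**Figure D2:**
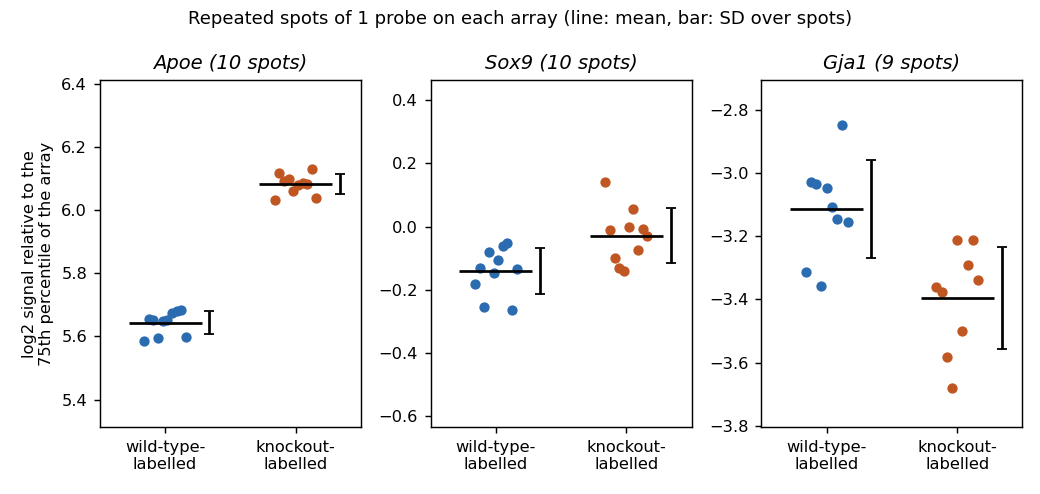
Each point is 1 spot of the same probe, with its log2 level relative to the 75th percentile of the array, for Apoe (10 spots), Sox9 (10 spots) and Gja1 (9 spots); lines are means and bars are SDs over spots. The Apoe spots form separate ranges on the 2 arrays, while those of Sox9 and Gja1 overlap.

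Secreted and surface proteins lay within 1.2-fold. Clu encodes clusterin, an extracellular chaperone, and was at 5.99 and 6.12 (0.13). Sparcl1, a matrix protein of glia, was at 5.94 and 5.87 (-0.069), and Timp3, an inhibitor of metalloproteinases, at 2.37 and 2.34 (-0.026). The tetraspanin Cd9 was at 2.97 and 2.89 (-0.078) and the orphan receptor Gpr37 at 3.62 and 3.67 (0.045). Of these 5, only Clu was beyond 2 technical SDs.

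Of the 4 Notch receptors and Hes factors, Hes1 was beyond 1.2-fold, toward the knockout label, and the others lay within 1.2-fold in the probes that stand for them. Hes5, a repressor that Notch switches on, was at 3.29 under the wild-type label and 3.46 under the knockout label, a difference of 0.17 or 1.13-fold. Hes1, of the same family, was dim: its processed signal was 58.3 and 73.2, its level -3.30 and -2.92. The difference of 0.38 was 2.04 times the technical SD of 0.19 at that level, and normexp gave 0.20.

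The receptor Notch1 was lower and dim in both of its probes. The brighter one went from -2.80 to -2.98 (-0.18) and the other from -4.87 to -5.31 (-0.44), with technical SDs of 0.19 and 0.33. The probes of Notch2 disagreed. The brighter, A_52_P289213, was at 0.098 and 0.22, a difference of 0.12. The other, A_55_P1982793, was at -4.30 under the wild-type label and not well above background under the knockout label, so that it was at least 2.39-fold lower by a bound. This probe is the only 1 of the 48 that was not well above background on both arrays, and which transcripts each probe covers is not known here.

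Other genes of the Notch pathway had a share of lower genes near that of all named genes, and no higher gene at 1.2-fold. The 30 measured genes of the list were all above background. Their median was -0.040, with none at least 1.2-fold higher and 3 of 30 at least 1.2-fold lower, beside 7.86% and 9.71% of all named genes. These were the ligand Jag1, from 0.98 to 0.50 (-0.49), and the Hes relatives Hey2 (-0.32) and Heyl (-0.32). Hey1 was at -0.062 and Hes6 at -0.067. Rbpj, the DNA-binding partner of the Notch receptors, was at 0.16. The highest, Ncstn of the gamma-secretase complex, was at 0.20 with a technical SD of 0.33. Notch3 stood at -0.11 and Notch4 at 0.071.

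The Hes5 promoter is shown because Hes5 is the better measured of the Notch targets here. The 250 bases before its start lie at chr4:154960673-154960922 on the plus strand (RefSeq, GRCm38.p6). Capitals mark TGGGAA, the core of the site that RBPJ binds, on either strand.
Hes5: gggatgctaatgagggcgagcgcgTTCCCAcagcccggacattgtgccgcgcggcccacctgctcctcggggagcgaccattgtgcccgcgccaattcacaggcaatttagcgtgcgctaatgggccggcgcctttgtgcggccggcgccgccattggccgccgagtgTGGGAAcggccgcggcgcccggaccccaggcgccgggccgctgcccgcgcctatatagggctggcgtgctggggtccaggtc
The stretch holds 2 matches, 226 bases before the start on the minus strand and 82 bases before it on the plus strand. TGGGAA occurred in 21.6% of the 32851 promoter stretches and in 6 of the 33 listed for Müller glia genes, those of Aldh1l1, Cd9, Gfap, Hes5, Mlc1 and S100b. These other 5 genes had differences from -0.10 (Aldh1l1) to 0.016 (Mlc1).

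The Id genes all lay within 1.2-fold. Id proteins bind the E proteins, a class of basic helix-loop-helix factors, and keep them from DNA. Id1 was at 0.70 and 0.72 (0.015), Id2 at 1.37 and 1.33 (-0.038) and Id3 at 2.16 and 2.22 (0.063), and none exceeded 2 technical SDs. Their relative Id4 was at -0.051. The E proteins Tcf3, Tcf4 and Tcf12 and genes of BMP signalling, which induces Id genes, made up a list of 16 with Id4. Its median was -0.037, from the ligand Bmp4 at -0.42, the only gene beyond 1.2-fold, to Smad5 at 0.14.

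Among the transcription factors of glial fate, Nfia was higher and the others were within 1.2-fold. Nfia, a nuclear factor I gene needed for gliogenesis, was at -1.75 under the wild-type label and -1.45 under the knockout label, 1.23-fold higher. Its brighter probe gave 0.30, and normexp lowered the value of the gene to 0.17. The other probe was dim, at -4.22 and -3.90, and its 0.32 lay within the technical SD of 0.33. Nfib was at -0.061 with its 5 probes between -0.11 and 0.037. Nfix was at -0.018, while its other probe was at 0.19. The relative Nfic was at 0.13.

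Sox9, a factor of Müller glia and late progenitors, was spotted 10 times. Its level ran from -0.26 to -0.052 (median -0.13) under the wild-type label and from -0.14 to 0.14 (median -0.021) under the knockout label. The ranges overlapped, with 8 of 10 positions higher, and the mean difference was 0.11 ± 0.12 (SD, n = 10 spots). Sox2, a progenitor factor that Müller glia keep, was at 0.12, from -0.16 to -0.038, and Sox8 at -0.11, from -1.34 to -1.45. Of 6 relatives, Sox11 was lowest (-0.28) and Nfic highest. Sox1 (-0.17), Sox3 (0.087) and Sox10 (0.10) each lay within 2 technical SDs.

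Filament and calcium-binding genes were level in their brightest probes. Vim encodes vimentin, an intermediate filament of Müller glia, and was at 4.30 and 4.34 (0.042). Gfap encodes the filament protein of astrocytes, which Müller glia take up in gliosis. Its brightest probe was at -0.96 and -1.02 (-0.055), but the other probes lay on the other side. They were at -1.76 and -1.60 (0.16) and at -4.89 and -4.43 (0.46), with technical SDs of 0.086 and 0.33. S100b was at 1.62 and 1.60 (-0.019). S100a16 was at -0.0048, with 0.10 in its other probe.

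Spc25 is a kinetochore subunit and a listed marker that does not name a glial function. It was at 3.15 under the wild-type label and 3.16 under the knockout label, a difference of 0.010. Its partners in the Ndc80 complex were dim. Ndc80 was not well above background on either array, Spc24 was at -4.67 and -4.66, and Nuf2 was above background on the wild-type-labelled array only, at least 2.26-fold lower on the other by a bound. Of 13 genes of dividing cells and the kinetochore 10 were above background, with a median of -0.34, and 6 of them were at least 1.2-fold lower. Mki67, a proliferation marker, went from -1.69 to -2.03 (-0.34) and Top2a from -3.90 to -4.92 (-1.02), the highest being Ccna2 at 0.19. The summed linear signal of the list, in units of the array's 75th percentile, was 3.13 and 2.56. Aurkb and Cenpf were also not well above background.

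**Figure D3:**
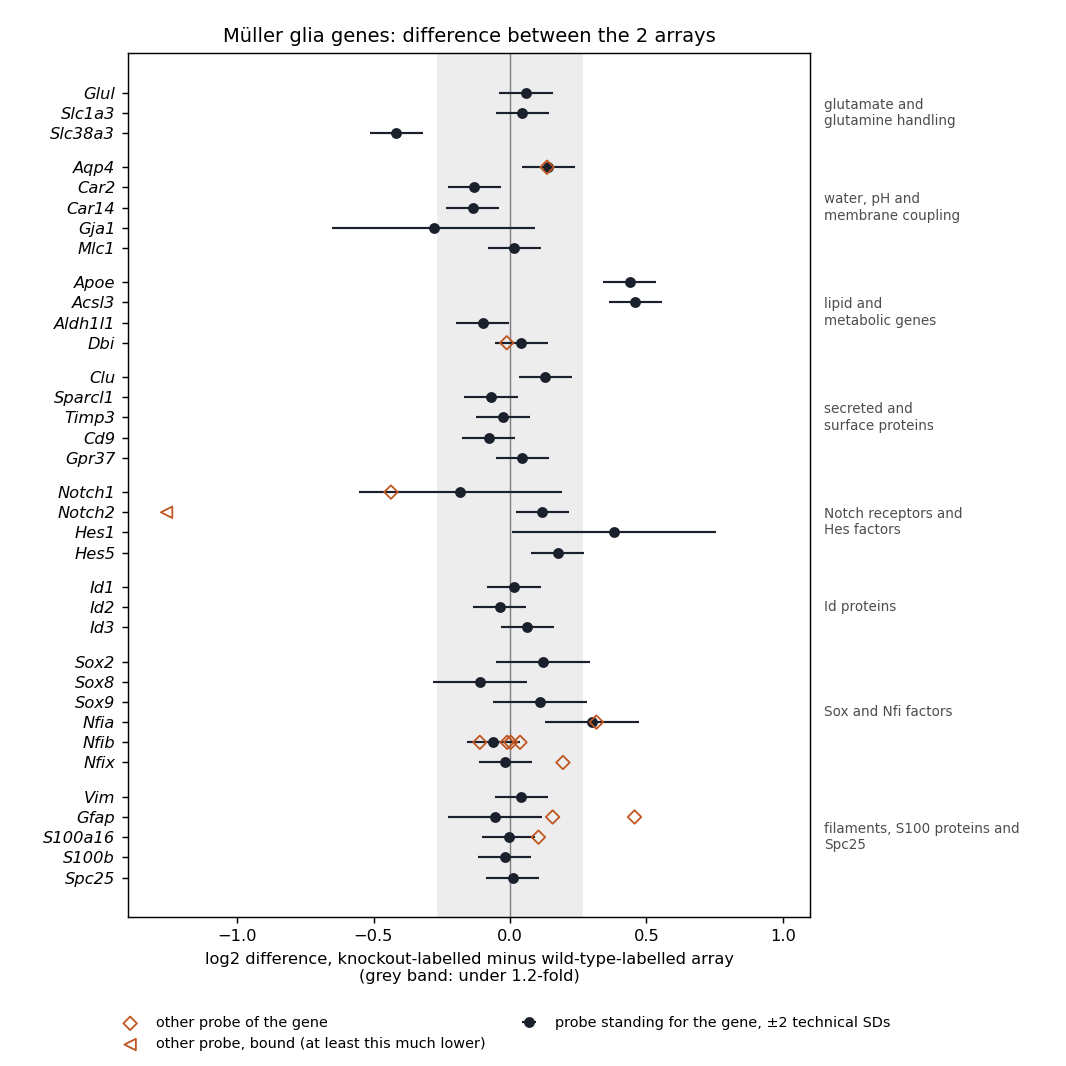
The log2 difference of each Müller glia gene, knockout-labelled minus wild-type-labelled, as the probe that stands for the gene (filled, bars of 2 technical SDs of 1 spot) and its other probes (diamonds, or a triangle for a bound). Acsl3, Apoe, Hes1 and Nfia lie to the right of the grey 1.2-fold band and Slc38a3 and Gja1 to its left, and the triangle at -1.26 is the bound for the other probe of Notch2.

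Where several probes covered a member, they did not always take the same side. Of 9 such genes, 3 had all probes on 1 side of 0 (Aqp4, Nfia and Notch1) and 6 had probes on both (Dbi, Gfap, Nfib, Nfix, Notch2 and S100a16). The other 26 members rest on 1 probe each.

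**Figure D4:**
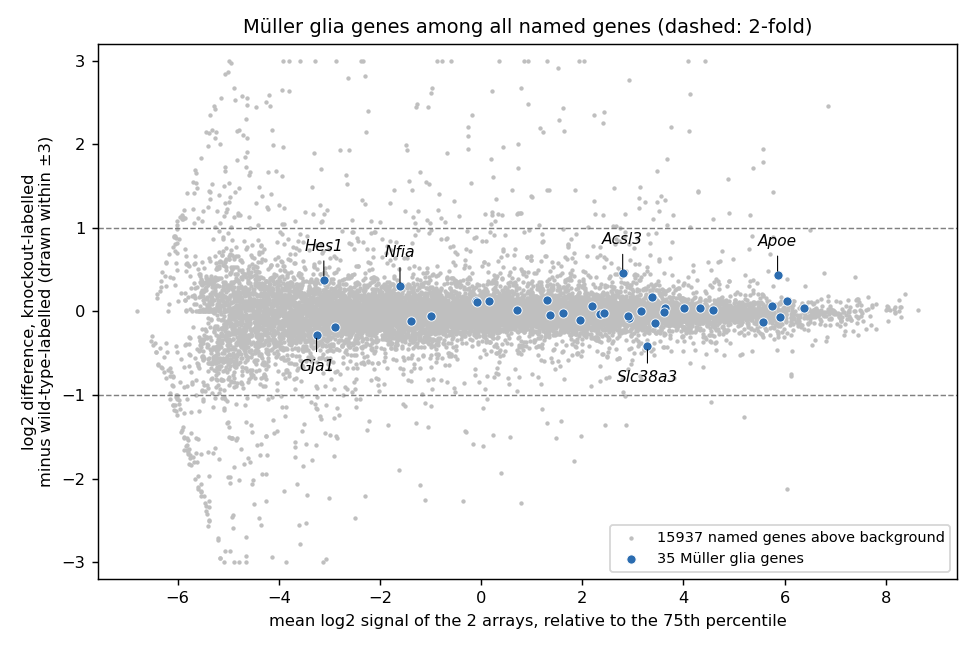
Mean log2 level of the 2 arrays against the log2 difference for all 15937 named genes above background (grey, drawn within 3 of 0) and the 35 Müller glia genes (blue), with 2-fold lines. The Müller glia genes stay inside the 2-fold lines at every level, and the grey cloud widens toward dim genes.

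Other genes known from Müller glia also lay near 0. Of 24 listed, all were above background, 23 of them on both arrays, and the median was -0.016, with 1 at least 1.2-fold higher and 2 lower. Rlbp1, the retinaldehyde-binding protein of the visual cycle, was at 4.49 on both arrays. The homeobox gene Rax was the highest measured on both arrays at 0.17, and Sox21 (-0.38) and the opsin-like Rgr (-0.37), also made by pigment epithelium, were the lowest. The potassium channel gene Kcnj2 was above background on the knockout-labelled array only and at least 1.60-fold higher by a bound. For retinal astrocytes, the list of 8 shares Gfap, S100b, Aldh1l1 and Gja1 with the 35. Of it 7 were above background with a median of -0.055, from Gja1 to Slc1a2, and the astrocyte factor Pax2 was not well above background.

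All marker lists of other cells had medians further from 0 than that of the 35 (0.015). The place of 0 depends on the scaling, and the median of all named genes was -0.023. The oligodendrocyte list (-0.027) lay nearer to that value than the 35 did. Furthest from 0 were lens (1.85), pigment epithelium (-0.39), dividing cells (-0.34), red blood cells (0.26) and rods (-0.22). The lists of bipolar cells and oligodendrocytes had no gene beyond 1.2-fold. Several of these cells also express some of the 35, such as Apoe in microglia and Vim in lens. Lens genes were higher: 11 of 12 above background were at least 1.2-fold and 9 at least 2-fold higher, with a median of 1.85 and a summed signal of 4.99 and 20.5. They ran from Bfsp2 (-0.15) to Crybb2 (2.80), Mip and Lim2 were given by bounds, and Gja3 was not well above background. The other lens genes at least 2-fold higher were Cryaa, Cryba1, Cryba2, Cryba4, Crybb1, Crybb3 and Crygs. Pigment epithelium genes were lower, with 7 of 9 at least 1.2-fold lower, a median of -0.39 and a summed signal of 29.8 and 22.03, from Pmel (-0.81) to Best1 (0.15), with Lrat not well above background. Rod genes had a median of -0.22, from Gnat1 (-2.13) to Pde6b (-0.069), with a summed signal of 829 and 630. Gnat1, from 7.10 to 4.97, was the only 1 of the 8 at least 1.5-fold lower and weighs heavily in these sums.

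The 4 measured genes of red blood cells had a median of 0.26, from Slc4a1 (-0.52) to Hbb-bt (0.44), with summed signals of 22.9 and 29.2. Microglia genes had a median of -0.13, from Csf1r (-0.23) to Itgam (0.33), and summed signals of 22.1 and 23.0. For endothelium and pericytes the median was -0.12, from Tek (-0.29) to Kcnj8 (0.33), with sums of 33.0 and 31.8. Genes of oligodendrocytes, which reach a dissected retina with attached optic nerve, had a median of -0.027 over 7 measured, the lowest being Mag (-0.26), with sums of 11.1 and 11.47, and Mobp was not well above background. Bipolar cell genes, the neurons the retina should hold, had a median of 0.028, from Isl1 (-0.14) to Trpm1 (0.083), with sums of 193 and 191. For the 35 Müller glia genes the sums were 540 and 562. The part of these other cells in the differences of the 35 was not tested.

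**Figure D5:**
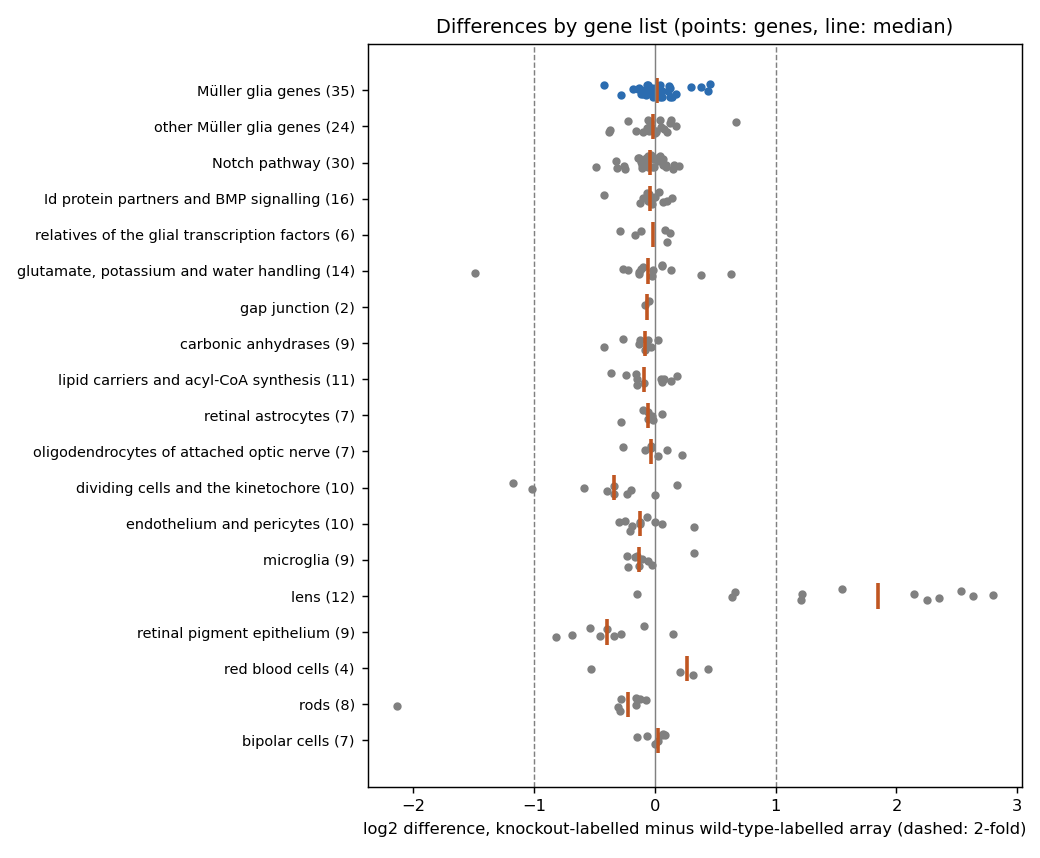
Log2 differences (points) and medians (lines) of the 35 Müller glia genes and of the 18 gene lists set beside them, with the number of genes above background in brackets and 2-fold marked by dashed lines. The Müller glia genes and most genes of the lists of related genes, pathways and families lie near 0. In those lists Aqp1 (-1.49) lies furthest out, followed by Kcnj2 (0.67, a bound) and Slc38a1 (0.63), while lens genes lie far to the right.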

How the data were processed

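The members and all gene lists were chosen with earlier results of these data known. Scanner signals are linear intensity values deposited by the authors as written by Agilent Feature Extraction 11.5.1.1 (protocol GE1_1105_Oct12), per the file headers; the design build was mm9 and both arrays lay on 1 slide. The values table the authors deposited holds the same intensity values times a constant per array and served as an alternative.

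Values were log2 processed signal minus the 75th percentile of the same array, taken over its 59305 spots that are not controls. Spots flagged as outliers (119 and 163) were left out, and spots of a probe were averaged. No spot was saturated. Probes were named by unversioned transcript accession in RefSeq tables of GRCm38.p6: 28330 of 55677 probes (50.9%) had 1 symbol, none several and 27347 none. The brightest probe stood for a gene, which was counted when well above background on at least 1 array. A gene above background on 1 array only was given as a bound, against the higher of the other array's lowest signal well above background and its own. The technical SD came from 320 probes with repeated spots above background. Text names all 35 members and, of each other list, the highest, the lowest and every gene 2-fold apart or given by a bound, plus relatives of members; the Acsl relatives and Rgr were chosen after their values were seen. The counting step was checked on simulated data. Alternatives used limma 3.58.1 in R 4.3.3. The number of arrays limits the precision. A few genes of the other lists are not reported here.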

Additional observations from a re-analysis of the deposited data

How the results depend on the processing

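The median of the Müller glia genes stayed between 0.015 and 0.047 under each alternative run. Against 4 members at least 1.2-fold higher and 2 lower, normexp on median signals gave 2 and 1, and members at levels of 0 or more, chosen after seeing the data, also 2 and 1. Median centring, quantile normalization and loess each gave 1 lower, since Gja1 lies near the threshold. The mean over probes gave 4 lower and 1 gene 2-fold apart, Notch2 at -1.08, whose dim probe enters that mean at a value not well above background under the knockout label. With that probe at its bound, an alternative chosen after seeing the data, Notch2 was at -0.57 or lower, with 4 members lower and none 2-fold apart. At 1.5-fold and 2-fold no member was left on either side. Leaving out Spc25, also chosen later, changed no count. Of 210 recomputed member values, 6 moved by over the technical SD: Car14 (-0.030) and Nfia (0.17) under normexp, and Notch2, Nfix (0.088), Gfap (0.19) and S100a16 (0.050) with the mean over probes. The sign changed in 14 values of 7 members, each within 1.2-fold in its reported value (Gfap, Nfix, Notch2, S100a16, S100b, Spc25 and Timp3).

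For all named genes, 1252 were at least 1.2-fold higher and 1548 lower, 472 and 510 at 1.5-fold, and 251 and 218 at 2-fold. Normexp, whose offset of 50 shrinks dim differences, gave 726 and 778, 267 and 171, and 125 and 46. With no filter on dim probes there were 2212 and 2719, 1129 and 1320, and 579 and 671. Genes above background on both arrays gave 293 lower at 1.5-fold, and 160 higher and 94 lower at 2-fold, where bounds drop out. A planned normexp run on mean spot signals was left out, since only median spot signals were at hand. No paired analysis was possible because only 1 array stands for either genotype, so none could be left out either.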
